A study of Rattus norvegicus with 4 samples.

Results

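Genes of the muscle ankyrin repeat, LIM-domain, calsarcin and leiomodin families were followed in rat skeletal muscle across a model of intermittent claudication, in which a leg with poor blood supply hurts when it is used. The set held 10 genes (Ankrd1, Ankrd2, Csrp3, Fhl1, Fhl2, Fhl3, Lmcd1, Myoz1, Myoz2 and Lmod2), and all of their 14 probe sets among the 31099 of the array were taken by gene symbol. The genes were chosen by function and selected on their signals on these same 4 arrays, in all of the comparisons below, so every value below is a description of the arrays and none is a test. The 4 groups were ischemia treated by electrical stimulation (ES), which contracts the muscle through its nerve, ischemia with exercise, untreated ischemia, and sham. Each group was 1 array of total RNA from rats of the F344/DuCrlCrlj strain. No difference therefore has a replicate check, and no SD, SE or p-value can be given. Which muscle was sampled, the number of animals behind an array, and the timing of the treatments are not stated in the labels.

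Some of the proteins sit at or near the Z-disc, where thin filaments and titin of neighbouring sarcomeres are anchored. Muscle ankyrin repeat proteins bind the elastic part of titin, muscle LIM protein and the four-and-a-half LIM proteins link structural and signalling partners, calsarcins tether the phosphatase calcineurin to alpha-actinin, and leiomodins nucleate and lengthen actin filaments. Several of them also act in the nucleus as cofactors of transcription, and the family is known for responding to stretch and load. Ankrd2 and Myoz2 are known as genes of slow-twitch fibres, and Myoz1 as a gene of fast-twitch fibres.

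The deposited values were linear array signals. Values under 30.1, the median of all values of the 4 arrays, were set to that floor, and the probe set of a gene with the highest mean signal stood for the gene. All 10 genes lay above the floor on all 4 arrays by that probe set. Of the 14 probe sets, 13 lay above it on at least 1 array, and the third probe set of Fhl1 (1394750_at) lay under it on all 4, with signals of 9.06 to 13.9. Counts below are of genes whose signals on 2 arrays differed by 2-fold or more. For 16 spiked-in hybridisation control probe sets, the log2 signal varied between arrays with a median SD of 0.05. All 8 myofibre markers were above the floor on every array, with summed signals of 75746 to 91652. Of 6 markers of cardiac muscle, which also expresses most of these genes, 4 (Nppa, Nppb, Tnni3 and Myl7) were under the floor on all 4 arrays. Myl4 was above it on all 4, with 887 for ES, 329 for exercise, 546 for ischemia and 419 for sham. Myh6 was above it with exercise (35.9) and sham (56.9) only. The 3' over 5' signal ratio of actin, which grows as RNA degrades, was 5.94 for ES, 4.34 for exercise, 3.81 for ischemia and 4.38 for sham. The same ratio of GAPDH was closer to 1, at 1.26 for ES, 1.16 for exercise, 1.04 for ischemia and 1.16 for sham. Both were highest with ES and lowest with ischemia, and the part of RNA quality in the ratios below was not tested.

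**Figure D1:**
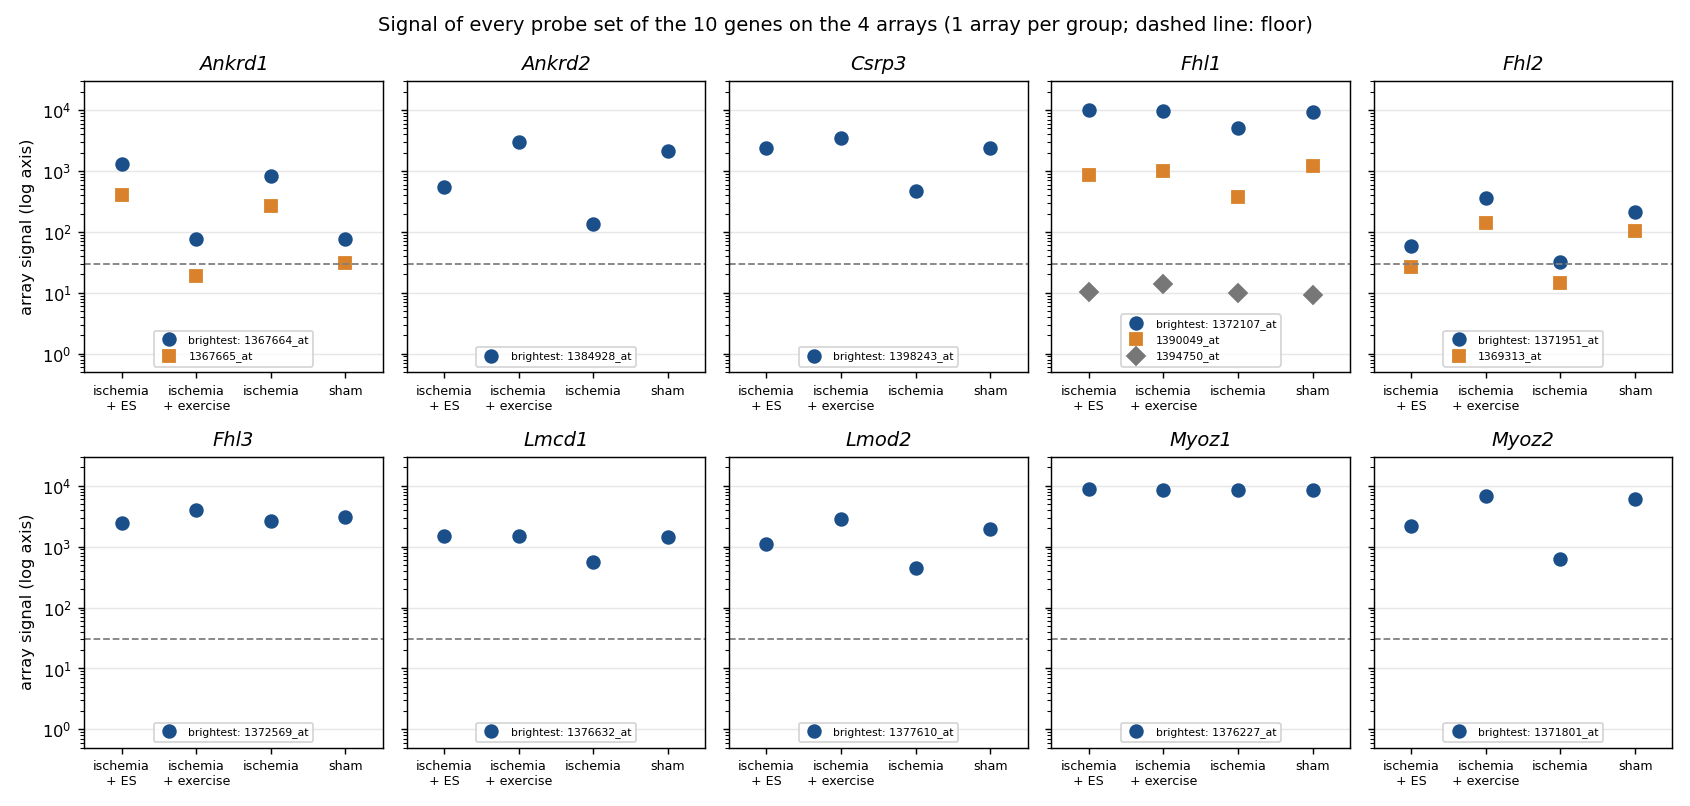
Array signal (log axis) of each of the 14 probe sets of the 10 genes on the ischemia + ES, ischemia + exercise, ischemia and sham arrays, 1 array per group, with the floor of 30.1 as a dashed line. Ankrd1 is high on the ES and ischemia arrays and low on the exercise and sham arrays, Ankrd2, Csrp3, Fhl2, Lmod2 and Myoz2 are lowest on the ischemia array, and Myoz1 lies between 8577 and 9001 throughout.

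The ankyrin repeat genes Ankrd1 and Ankrd2 differed in which arrays were high, with opposite directions in all comparisons past 2-fold for both genes (ischemia over sham, exercise over ischemia, ES over exercise and ES over sham), while both were higher with ES than with ischemia. Ankrd1, whose product shuttles between titin and the nucleus and is scarce in unstressed adult skeletal muscle, had a signal of 1298 on the ES array, 75.7 on the exercise array, 826 on the ischemia array and 77.7 on the sham array. The ES and ischemia arrays were high, and the exercise and sham arrays were low and within 1.03-fold of each other. The second probe set of Ankrd1 (1367665_at) gave 396 with ES, under the floor at 18.8 with exercise, 267 with ischemia and 30.4 with sham, the same split. Ankrd1 was 17.1-fold higher with ES than with exercise (at least 13.2-fold on the second probe set) and 16.7-fold higher with ES than with sham (13.1-fold on the second). In each of those comparisons 1 gene of 10092 had a higher ratio. Between ES and untreated ischemia Ankrd1 was 1.57-fold higher, short of 2-fold, and 1.49-fold on the second probe set.

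Ankrd2, its stretch-responsive relative of slow muscle, gave 549 on the ES array, 2978 on the exercise array, 137 on the ischemia array and 2141 on the sham array. Here the exercise and sham arrays were the high ones. Ankrd2 was 5.43-fold lower with ES than with exercise and 3.90-fold lower with ES than with sham, although it was 4.01-fold higher with ES than with ischemia. Exercise over sham was 1.39-fold. Over the 4 arrays the highest Ankrd2 signal was 21.8 times the lowest, and 2 of 10092 genes had a wider range. For Ankrd1 the same figure was 17.1 times, and 5 genes had a wider range. The median gene spanned 1.33-fold.

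Among the LIM genes, Csrp3, which encodes muscle LIM protein, gave 2360.4 with ES, 3525 with exercise, 469.9 with ischemia and 2424 with sham. Only the ischemia array was low. Csrp3 was 5.02-fold higher with ES and 7.50-fold higher with exercise than with ischemia, and the ES array was within 1.03-fold of sham (a log2 ratio of -0.04, and 0.002 under cyclic loess normalization). Lmcd1, a LIM protein that restrains GATA factors, was also low on the ischemia array alone, with 1499 for ES, 1507 for exercise, 564 for ischemia and 1466 for sham. Its ES, exercise and sham signals lay within 1.03-fold of each other, and it was 2.66-fold higher with ES and 2.67-fold higher with exercise than with ischemia.

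The four-and-a-half LIM genes differed from each other. Fhl1, the abundant member in skeletal muscle, gave 10069.7 with ES, 9818 with exercise, 5057 with ischemia and 9280.4 with sham, so that ischemia was low by less than 2-fold against each other array. It was 1.99-fold higher with ES than with ischemia, just short of the count. The second probe set of Fhl1 (1390049_at) gave 855 with ES, 1007 with exercise, 375 with ischemia and 1221 with sham. That probe set was past 2-fold against ischemia in every comparison, 2.28-fold higher with ES and 2.69-fold higher with exercise, and ischemia was 3.26-fold lower than sham on it. The 2 probe sets therefore put Fhl1 on either side of the threshold.

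Fhl2, a transcriptional cofactor best known from the heart, was dim, at 59.8 with ES, 359 with exercise, 32.1 with ischemia and 214 with sham. The ischemia signal lay just above the floor. Fhl2 was 6.0-fold lower with ES than with exercise and 3.57-fold lower with ES than with sham, and its ES signal was 1.86-fold that of ischemia. On its other probe set (1369313_at) ES was under the floor at 26.3, exercise gave 142, ischemia was under the floor at 14.2 and sham gave 104. ES was then at least 4.71-fold lower than exercise and at least 3.44-fold lower than sham, and ES and ischemia could not be set against each other. With 168% of the sham signal, Fhl2 had the highest exercise signal relative to sham of the 10 genes.

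Fhl3, a relative found mainly in skeletal muscle, gave 2451 with ES, 3938 with exercise, 2609.6 with ischemia and 3126 with sham. No pair of arrays differed by 2-fold. The widest gap was the ES signal, 1.61-fold lower than that of exercise, and 2218 of 10092 genes had a wider range over the arrays.

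The calsarcin genes differed in their range over the arrays. Myoz2, which encodes calsarcin-1 of slow fibres and heart, gave 2160.3 with ES, 6725 with exercise, 637 with ischemia and 6181 with sham. Exercise and sham were high, ischemia low and ES between them. Myoz2 was 3.11-fold lower with ES than with exercise, 2.86-fold lower with ES than with sham, and 3.39-fold higher with ES than with ischemia. Myoz1, which encodes calsarcin-2 of fast fibres, gave 9001 with ES, 8577 with exercise, 8606 with ischemia and 8644 with sham. Its highest signal was 1.05 times its lowest, and 9847 of 10092 genes had a wider range. Its log2 ratios, between -0.01 and 0.07, changed sign in 4 of 6 comparisons under quantile normalization and give no direction.

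Lmod2, a leiomodin that lengthens thin filaments in heart and skeletal muscle, gave 1114 with ES, 2812 with exercise, 446 with ischemia and 1960 with sham. The ES array was again intermediate. Lmod2 was 2.52-fold lower with ES than with exercise and 2.50-fold higher with ES than with ischemia, while ES was 1.76-fold lower than sham.

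Promoters from RefSeq (GRCr8) are printed below for the bases before the annotated start of 4 genes, to set the flat calsarcin gene Myoz1 beside Myoz2, the gene with the most marked motifs (Fhl2) and the gene with the widest range (Ankrd2), with matches to the MEF2 box, the CArG box and M-CAT (CATTCC) in capitals. All 3 motifs were searched on both strands. The 8 genes with an entry were Ankrd2, Fhl1, Fhl2, Fhl3, Lmcd1, Lmod2, Myoz1 and Myoz2, with 10 promoters in all, and Ankrd1 and Csrp3 were not matched.
Myoz2 promoter (GRCr8 chr2:213852779-213853028, minus strand): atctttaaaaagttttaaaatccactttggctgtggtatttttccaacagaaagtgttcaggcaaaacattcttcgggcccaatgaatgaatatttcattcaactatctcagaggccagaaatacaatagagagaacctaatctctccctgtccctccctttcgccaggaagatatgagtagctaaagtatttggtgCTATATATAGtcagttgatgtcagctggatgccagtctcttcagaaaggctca
Myoz1 promoter (GRCr8 chr15:3693363-3693612, plus strand): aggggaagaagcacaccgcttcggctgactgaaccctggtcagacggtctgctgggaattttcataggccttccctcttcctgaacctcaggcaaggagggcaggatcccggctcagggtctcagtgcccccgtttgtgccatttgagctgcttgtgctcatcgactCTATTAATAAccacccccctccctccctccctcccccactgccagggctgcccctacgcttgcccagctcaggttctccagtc
Fhl2 outer promoter (GRCr8 chr9:52954541-52954790, minus strand): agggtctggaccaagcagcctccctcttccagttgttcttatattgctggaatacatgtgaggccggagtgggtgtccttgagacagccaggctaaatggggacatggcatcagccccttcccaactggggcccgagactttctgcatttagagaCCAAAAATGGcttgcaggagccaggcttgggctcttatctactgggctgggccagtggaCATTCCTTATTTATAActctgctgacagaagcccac
Fhl2 inner promoter (GRCr8 chr9:52923327-52923576, minus strand): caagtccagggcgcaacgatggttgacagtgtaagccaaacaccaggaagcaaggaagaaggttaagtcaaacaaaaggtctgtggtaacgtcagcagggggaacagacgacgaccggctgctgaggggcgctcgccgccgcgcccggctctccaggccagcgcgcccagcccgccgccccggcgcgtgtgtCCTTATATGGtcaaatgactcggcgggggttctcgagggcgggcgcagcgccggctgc
Ankrd2 promoter (GRCr8 chr1:250796169-250796418, plus strand): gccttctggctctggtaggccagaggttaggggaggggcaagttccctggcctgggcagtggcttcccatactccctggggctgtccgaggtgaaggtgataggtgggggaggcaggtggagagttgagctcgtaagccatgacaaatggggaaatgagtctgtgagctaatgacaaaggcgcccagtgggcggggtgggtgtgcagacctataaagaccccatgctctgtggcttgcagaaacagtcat
In windows of 300 bases, from 250 before to 50 after the start, a MEF2 box match stood in 3 of 10 promoters (Myoz1, Myoz2 and the outer Fhl2 promoter), against 3.29% of all 33469 promoters in the table. The matches of Myoz1 and Myoz2 began at -83 and -53 from the start, so both the calsarcin gene with a flat signal and the one with a 10.6-fold range carried one. The CArG box, the site of serum response factor, stood in 3 of 10 (both Fhl2 promoters and 1 of 2 Fhl1 promoters), against 1.64%. M-CAT, the site of TEAD factors, stood in 1 of 10, the outer Fhl2 promoter, against 14.2%, where it adjoined the MEF2 box match without overlap and the 2 form 1 run of capitals. E-boxes (CANNTG) stood in 9 of 10, against 72.1%, and are not marked. The Ankrd2 promoter held only E-boxes of these 4 motifs, and its gene had the widest range of the 10. Those of Lmod2 and Lmcd1, not printed, also held only E-boxes, and that of Fhl3 held none of the 4, so no marked motif was common to the genes low on the ischemia array. A match is a stretch of letters, and no binding was measured.

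Counted over the set, 7 of 10 genes were past 2-fold between ischemia and sham, 6 lower and 1 (Ankrd1) higher. Over all 10092 genes 1.64% were past 2-fold in that comparison, 0.862% lower and 0.783% higher. The median log2 ratio of the 10 genes was -1.76, against 0.002 for all genes. Between exercise and ischemia 7 of 10 were past 2-fold, 6 higher and Ankrd1 lower, where the background was 2.01%, 1.14% higher and 0.872% lower, with a median of 2.04 against 0.00. These comparisons and the next share the ischemia array, so its own error enters all of them. Between ES and ischemia 5 of 10 were past 2-fold, all higher (Csrp3, Ankrd2, Myoz2, Lmcd1 and Lmod2), against a background of 3.07% in either direction and 2.28% higher (0.793% were lower), with a median of 1.16 against 0.05. The smallest of these ratios was that of Lmod2 at 2.50-fold, and Fhl1 and Fhl2 fell outside with 1.99-fold and 1.86-fold.

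The treatments were also set against each other and against sham. ES differed from exercise by 2-fold in 5 of 10 genes, with Fhl2, Ankrd2, Myoz2 and Lmod2 lower and Ankrd1 higher, and the background was 4.05%, 1.1% lower and 2.95% higher. ES differed from sham in 4 of 10, with Ankrd2, Fhl2 and Myoz2 lower and Ankrd1 higher, and the background was 4.84%, 1.06% lower and 3.78% higher. Exercise differed from sham by 2-fold in 0 of 10, where 0.446% of all genes did, 0.258% higher and 0.188% lower. Fhl2 had the largest exercise over sham ratio of the 10 at 1.68-fold, followed by Csrp3 (1.45-fold), Lmod2 (1.43-fold) and Ankrd2 (1.39-fold).

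**Figure D2:**
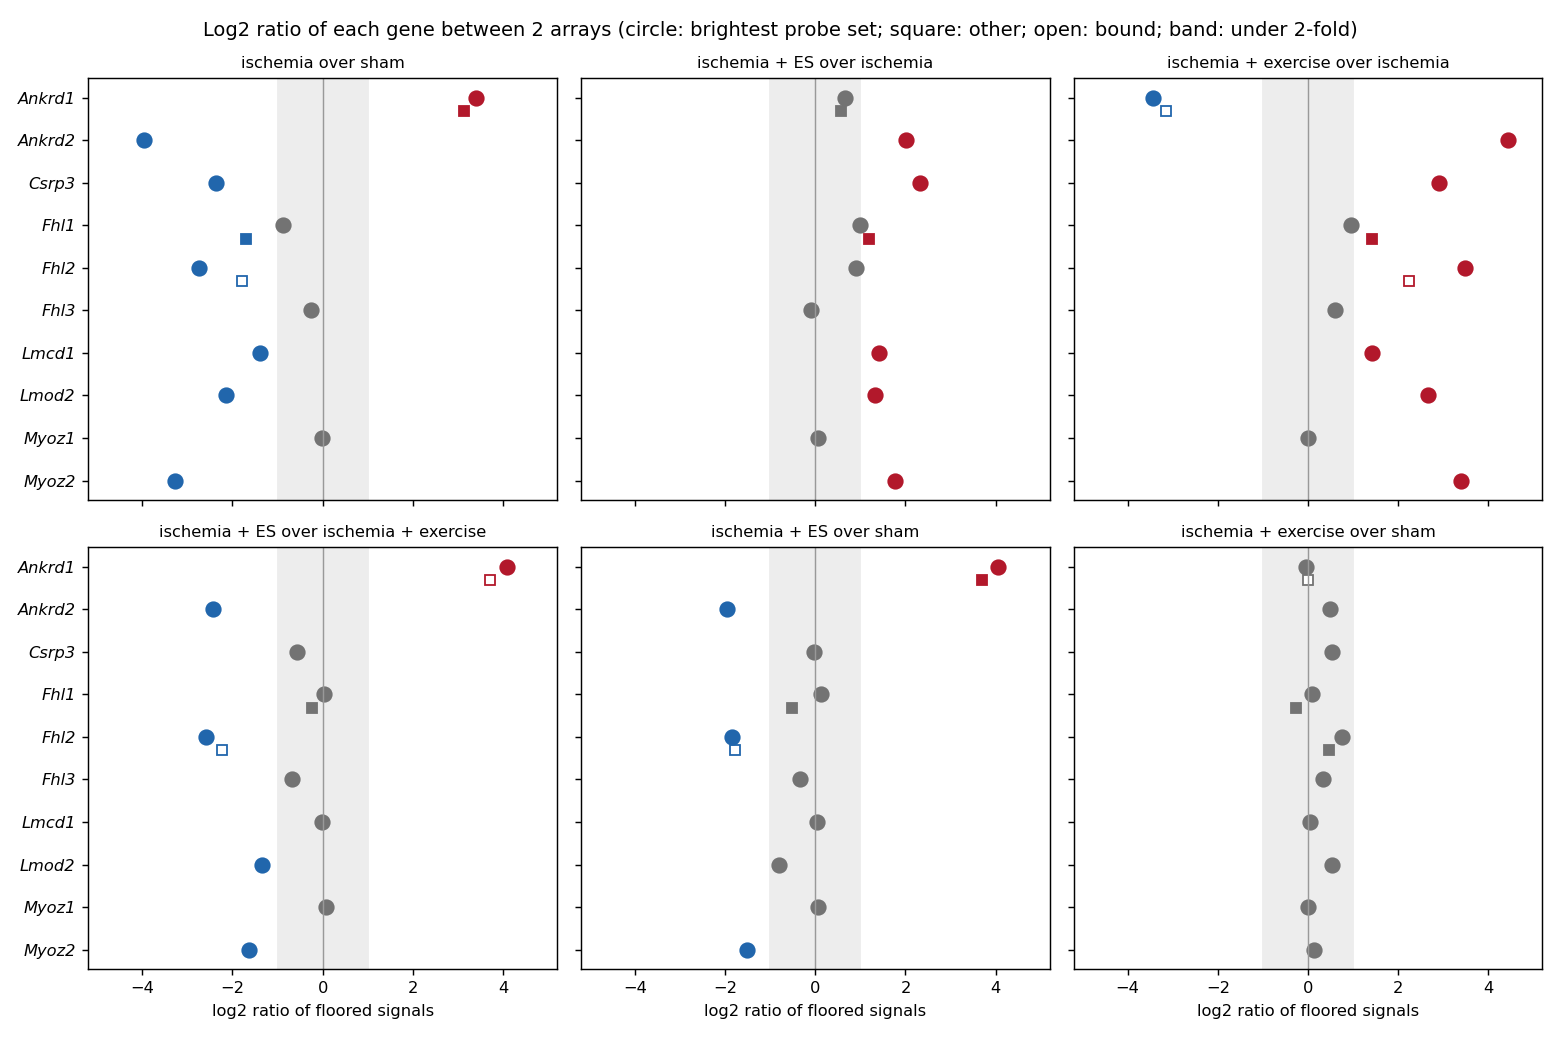
Log2 ratio of floored signals for each of the 10 genes in 6 comparisons of 2 arrays, with circles for the brightest probe set, smaller squares below them for the other probe sets, open symbols for bounds, red for 2-fold or more higher, blue for 2-fold or more lower and a grey band for less than 2-fold. Ankrd1 is the red point to the right in ischemia over sham, ES over exercise and ES over sham, and in exercise over sham all 10 genes lie within the band.

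**Figure D3:**
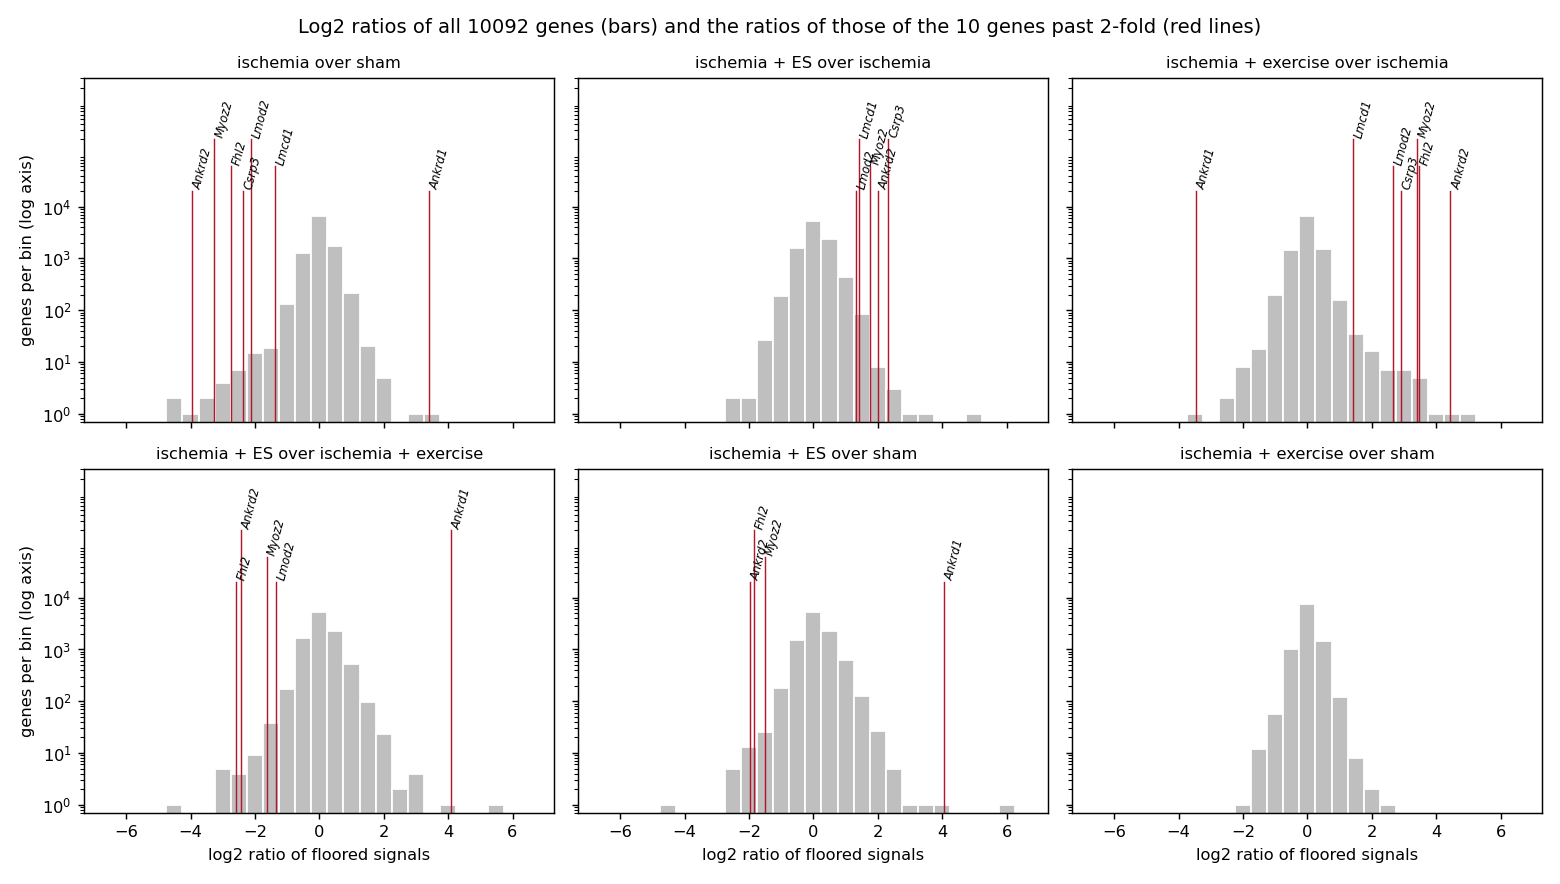
Number of genes (log axis) by log2 ratio in bins of 0.5 for all 10092 genes in the 6 comparisons, with red lines for those of the 10 genes that were past 2-fold. The lines lie in the tails of the distributions, with 7, 5, 7, 5, 4 and 0 lines in the order of the panels.

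The genes differed in how near to sham they stood on the ES array. Csrp3, Lmcd1 and Fhl1 stood at 97.4%, 102% and 109% of sham with ES, and at 19.4%, 38.5% and 54.5% with untreated ischemia. The second probe set of Fhl1 was below sham on each of the 3 arrays, with log2 ratios over sham of -0.51 for ES, -0.28 for exercise and -1.70 for ischemia, so the place of Fhl1 at sham level holds for its brightest probe set alone. Lmod2 stood at 56.8% of sham with ES, Myoz2 at 34.9%, Fhl2 at 28.0% and Ankrd2 at 25.6%, and with ischemia these 4 stood at 22.8%, 10.3%, 15.0% and 6.39%. With exercise all 7 stood, by the brightest probe set, between 103% (Lmcd1) and 168% (Fhl2) of sham. The summed signal of 9 slow-fibre genes was 35.0% of sham with ES, 116% with exercise and 18.2% with ischemia, while that of 11 fast-fibre genes was 103%, 99.7% and 96.5% in the same order. By the brightest probe set, all 9 slow-fibre genes were past 2-fold lower with ischemia than with sham. Against ischemia, 3 were past 2-fold higher with ES and all 9 with exercise. All 9 were lower with ES than with exercise, 7 of them past 2-fold. Other probe sets did not all show this, and some were limited by the floor. Those of Myh7, Tnni1 and Casq2 did for ischemia over sham. Their log2 ratios were -3.91, -3.21 and -2.09 (-1.93, -2.83 and -2.04 on the brightest). For ischemia over sham the 7 others of Tpm3 had log2 ratios of -0.67 to 0.07 (-4.55 on the brightest), some of them at the floor. That of Myl2 had -0.50 (-2.71 on the brightest) and 1 of the 3 others of Atp2a2 had -0.90. On these Myl2 and Atp2a2 probe sets ischemia and ES were at the floor, so ischemia was lower than sham by at least that much. The slow troponin gene Tnnt1 gave 1278 with ES, 8659 with exercise, 676 with ischemia and 6702 with sham. Of the 11 fast-fibre genes 0 were past 2-fold in any of the 6 comparisons by the brightest probe set, and other probe sets of Mybpc2 (ES over ischemia, a log2 ratio of -1.01) and Tnnt3 (exercise over ischemia, -1.02) just passed it. The brightest probe sets of these genes gave high signals, from 6496 to 13339, as did that of Myoz1. Whether ratios are compressed at such signals was not tested. In a bulk sample, fewer cells of a type and less RNA per cell cannot be told apart, and the part of fibre composition in these values was not tested.

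**Figure D4:**
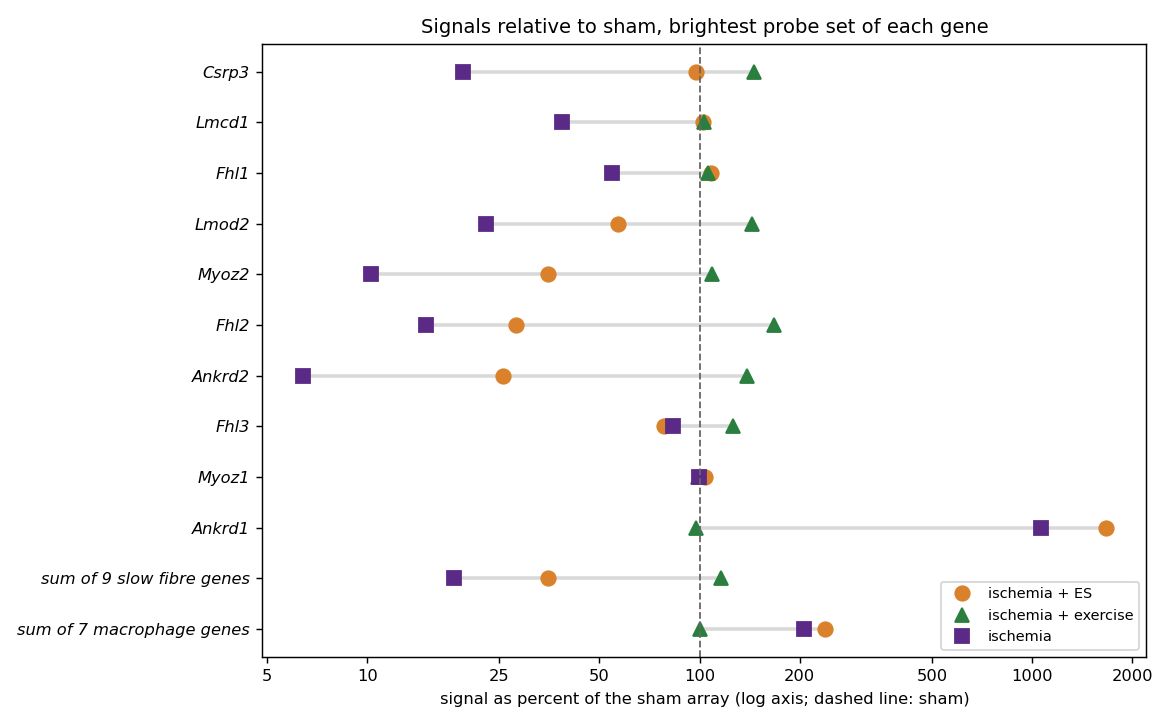
Signal of the brightest probe set of each gene on the ischemia + ES, ischemia + exercise and ischemia arrays as a percent of the sham array (log axis), with the summed signals of 9 slow-fibre and 7 macrophage genes below. With ES, Csrp3, Lmcd1 and Fhl1 lie at 97.4% to 109% of sham while Ankrd2, Fhl2, Myoz2 and Lmod2 lie at 25.6% to 56.8%, and Ankrd1 lies at 1671%.

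The genes with the most similar profile were found for each of the 7 genes that spanned 2-fold or more, as the smallest Euclidean distance between centred log2 signals over the 4 arrays, which are few points and share every array. Nearest to Ankrd1 were Gpnmb, Spp1 and Cd68, all known from macrophages, at distances of 0.99, 1.79 and 1.79. Gpnmb gave 1158 with ES, 159.8 with exercise, 787 with ischemia and 105 with sham. Of 7 macrophage markers (Cd68 among them) 4 were more than 2-fold higher with ischemia than with sham. With ES 6 were higher than with exercise, 3 of them more than 2-fold. Their summed signal was 3179 with ES, 1337 with exercise, 2756 with ischemia and 1334 with sham. That sum was high on the same 2 arrays as Ankrd1, but most of it came from Lyz2. Lyz2 alone gave 2553 with ES, 984 with exercise, 2073 with ischemia and 925 with sham. Of the 7 markers, 6 were higher than sham with ischemia and with ES, Csf1r by only 1.33-fold and 1.24-fold. Cd163 went the other way, 1.26-fold lower with ischemia and 1.30-fold lower with ES than with sham. The summed signal of 7 fibroblast markers split like the macrophage sum, with 21218 for ES, 13870 for exercise, 24660 for ischemia and 13763 for sham. Of these markers 3 (Col1a1, Col1a2 and Thy1) were more than 2-fold higher with ischemia than with sham. Dcn and Lum did not show the split. Dcn was lower with ES (2482) than with exercise (2620) or sham (2685), and Lum was higher with exercise (2924) than with ischemia (2761). On the exercise array Spp1 and Cd68 were under the floor. The part of macrophages and fibroblasts in the Ankrd1 signal was not tested.

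Nearest to Ankrd2 were Rrad, a small GTPase gene, the slow troponin gene Tnnt1, and Myoz2, at 0.64, 0.79 and 0.80. Nearest to Myoz2 were Tnni1, Myl2 and Tnnc1, and nearest to Fhl2 were Tnnc1, Tnnt1 and Tnni1, all slow-fibre contractile genes, at 0.41 to 0.60. Csrp3 lay nearest to Casq2, the slow and cardiac calsequestrin gene, at 0.34, then to the small heat shock gene Hspb7 at 0.38 and to Ldhb, the lactate dehydrogenase subunit of oxidative tissue, at 0.52. Casq2 gave 746 with ES, 936 with exercise, 171 with ischemia and 704 with sham. Lmcd1 lay nearest to Dapk2 (0.11), Ampd3 (0.23) and Bex1 (0.24), and Lmod2 to Galnt5 (0.36), Myl2 (0.48) and Hspb7 (0.50). These likenesses rest on the brightest probe sets. For ES over ischemia the other probe sets of Hspb7 and Dapk2 had log2 ratios of only -0.04 and 0.39, while those of Casq2 and Tnni1 had 1.92 and 1.44. On that of Myl2 both arrays were at the floor and could not be set against each other.

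Other genes of the Z-disc and of the same families were counted in the same way, with no test. For these and all other lists, the share of all genes past 2-fold was 1.64% for ischemia over sham and 2.01% for exercise over ischemia. It was 3.07% for ES over ischemia, 4.05% for ES over exercise and 4.84% for ES over sham. Of 29 Z-disc and titin partner genes, 2 were past 2-fold between ischemia and sham, Xirp1 (2.05-fold lower) and Pdlim1 (2.24-fold lower), and both were higher with exercise than with ischemia, by 2.89-fold and 2.92-fold. With ES over ischemia 1 of the 29 was past 2-fold, where 3.07% of all genes were. This was Actn2, the alpha-actinin to which calsarcins and muscle LIM protein bind, at 2.33-fold higher. Its signals were 6923 for ES, 5524 for exercise, 2972 for ischemia and 5308 for sham. Titin (Ttn) gave 11677 with ES, 11776 with exercise, 10970.0 with ischemia and 10824 with sham. Telethonin (Tcap), which caps titin in the Z-disc, gave 8444 with ES, 8850.2 with exercise, 7832 with ischemia and 9342 with sham. Medians of the 29 log2 ratios were -0.08 for ischemia over sham, 0.09 for ES over ischemia and 0.16 for exercise over ischemia.

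By the brightest probe set, 0 of 10 close relatives were past 2-fold between ischemia and sham or between exercise and ischemia. Ankrd23, the third muscle ankyrin repeat gene, gave 4368 with ES, 4763 with exercise, 5078 with ischemia and 4658 with sham. It had neither the Ankrd1 nor the Ankrd2 profile. Myoz3, the third calsarcin gene, gave 1555 with ES, 1512 with exercise, 1873 with ischemia and 1987 with sham. Lmod1, the leiomodin of smooth muscle, was 2.34-fold lower with ES than with ischemia and 2.84-fold lower with ES than with exercise, with signals of 56.9 for ES, 162 for exercise, 133 for ischemia and 137 for sham. It was the 1 gene of 8 smooth muscle markers that was lower with ES than with ischemia. The other 7 were higher, 2 of them past 2-fold (Mcam at 2.51-fold and Myh11 at 2.06-fold), and the summed signal of the 8 was 2151 with ES, 1707 with exercise, 1445 with ischemia and 1874 with sham. Lmod3, which promotes thin filament assembly in skeletal muscle, gave 1125 with ES, 1799 with exercise, 1138 with ischemia and 1506 with sham. On its other probe set Lmod3 was past 2-fold, with a log2 ratio of -1.22 for ischemia over sham and 1.05 for exercise over ischemia. None of 9 genes of thin filament length and capping was past 2-fold in any of the 6 comparisons.

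Partner signalling genes were examined for the calsarcins and for Ankrd1. Of 14 calcineurin and NFAT genes, 1 was past 2-fold in ischemia over sham and in exercise over ischemia. This was Rcan1, a feedback inhibitor whose transcription follows calcineurin activity, at 319 with ES, 559 with exercise, 203 with ischemia and 584 with sham. Rcan1 was 2.88-fold lower with ischemia than with sham and 2.76-fold higher with exercise than with ischemia. Ankrd1 is a known target of the coactivator YAP with TEAD factors. Of 15 genes of that list, 0 were past 2-fold between ischemia and sham or between ES and ischemia, and 1, the TEAD cofactor gene Vgll4, was 2.0-fold lower with exercise than with ischemia. The YAP target genes Ccn2 and Ccn1 had another order. Ccn2 gave 605 with ES, 1760.3 with exercise, 958 with ischemia and 1415 with sham, and Ccn1 gave 246 with ES, 306 with exercise, 363 with ischemia and 511 with sham. With ES over sham Ccn2 was 2.34-fold and Ccn1 2.08-fold lower, where Ankrd1 was 16.7-fold higher. Of the 15 genes, 10 were lower with ES than with sham and 5 were higher, 0 of these past 2-fold. The part of YAP and TEAD factors in the Ankrd1 signal was not tested. None of 7 genes of the serum response factor list was past 2-fold in any of the 6 comparisons.

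Of 11 genes of regenerating fibres, 5 were more than 2-fold higher with ES than with ischemia, the perinatal myosin gene Myh8 most of all, with signals of 2393 for ES, 45.0 for exercise, 86.4 for ischemia and 36.9 for sham. Myh8 was 2.34-fold higher with ischemia than with sham, where Ankrd1 was 10.6-fold higher, and 27.7-fold higher with ES than with ischemia, where Ankrd1 was 1.57-fold higher. The part of regenerating fibres in the Ankrd1 signal was not tested.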

How the data were processed

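The values the authors deposited were linear intensities, 1 for each probe set on each of 4 single-colour arrays, and per the submitters' processing notes MAS5 was used, with no version given. Per the labels' protocols, the labelled cRNA came from a 3' IVT kit. Trimming 2% at each end, the mean intensity was 150.1 on every array, so each array had been scaled before deposit and a difference in total mRNA cannot be seen. Here the arrays were brought to 1 common trimmed mean, a floor was set at the 50th percentile (30.1), and log2 was taken. Genes were named from the platform annotation of 2016, which gave 20832 probe sets 1 symbol, and all 14 probe sets of the 10 genes matched a RefSeq gene of the same symbol. Of 14218 genes, 10092 were above the floor on at least 1 array. The number of arrays limits the precision.

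The 10 genes and the lists were chosen with earlier results of these data known. Named genes were the 10 members, up to 4 genes past 2-fold from each list and comparison, and the 3 nearest profiles of each member that spanned 2-fold. Genes named outside this rule included Ttn, Tcap, Ankrd23, Myoz3 and Lmod3, chosen as partners or relatives after their values were seen. Markers short of 2-fold (Cd163, Dcn, Lum and Myh6) or under the floor (Nppa, Nppb, Tnni3 and Myl7) were also outside it. So were Myh7, Mybpc2 and Tnnt3, named for their other probe sets. Alternatives were quantile and cyclic loess normalization (limma 3.58.1 in R 4.3.3), other floors and folds, the mean of all probe sets, and leaving out probe sets open to cross-hybridization. Calculations used Python 3.11.15 and were tested on simulated arrays. No count model or p-value was used, since 1 array per group leaves no spread between samples.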

Additional observations from a re-analysis of the deposited data

Results flagged for a closer look

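The log2 ratio of Ankrd1 was 0.65 for ES over ischemia and -3.45 for exercise over ischemia, so the treated arrays lay on opposite sides of the untreated one. The ES ratio was short of 2-fold, at 1.57-fold and 1.49-fold on the 2 probe sets, and ranked 771 from the highest of 10092 genes. With 1 array per group the difference between the treatments was not tested, and both ratios share the ischemia array.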

How the results depend on the processing

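Of 360 log2 ratios of the 10 genes under other normalizations, floors and probe set rules, 354 moved by less than 1.5-fold, 6 moved by more and none past 2-fold changed sign or fell under 2-fold. All 6 were ratios of Fhl2, 5 of them with the floor at the 70th percentile, which lies above its ES and ischemia signals (exercise over ischemia then had a log2 ratio of 1.82, against 3.48), and 1 with the mean of all probe sets (2.86). The counts of the 10 genes past 2-fold stayed as given in the 6 comparisons under every normalization, floor and probe set rule tried. At 1.5-fold the count for ES over ischemia was 8 in place of 5 and that for exercise over sham 1 (Fhl2) in place of 0, and at 3-fold that for ES over ischemia was 3. The counts of the other comparisons also rose at 1.5-fold and fell at 3-fold. In ischemia over sham, Fhl1 (1.84-fold lower) entered at 1.5-fold and Lmcd1 (2.60-fold lower) left at 3-fold. The share of all genes past the threshold moved more. It ran from 0.446% to 4.84% over the 6 comparisons as reported, from 2.55% to 7.01% with the floor at the 30th percentile, from 0.324% to 3.17% at the 70th, from 4.64% to 16.7% at 1.5-fold, and from 0.0595% to 0.773% at 3-fold. Signs of ratios near 0 (Myoz1, and Fhl1, Lmcd1 and Csrp3 among ES, exercise and sham) changed with the setting. Fhl2 and the second probe set of Ankrd1 lie near the floor, and their ratios are the least certain. No paired analysis was possible because each group is 1 array.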
